A study of Homo sapiens with 12 samples.

Results

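The 10 genes described here encode 9 glycolytic enzymes and the lactate dehydrogenase subunit that follows them: HK2, PFKL, PFKP, ALDOA, TPI1, GAPDH, PGK1, PGAM1, ENO1 and LDHA. They were taken by symbol from the 19951 entries of a gene table, and all 10 were found. The table holds mRNA sequencing and ribosome profiling of MonoMac6 (MM6) cells, a human acute myeloid leukemia line of monocytic character, after knockdown of IGF2BP2. IGF2BP2 is an RNA-binding protein that reads the m6A mark on mRNA and is known to stabilise bound transcripts, and the study asks, by its title, about its part in glutamine metabolism. Cells carried a lentiviral hairpin named shNS, the control, or 1 of 2 hairpins against IGF2BP2, shBP2-1 and shBP2-2. All groups had the same MM6 background, 48 h of transduction and 2 days of puromycin selection, in medium with glutamine, sodium pyruvate and insulin. Each hairpin has 2 mRNA libraries and 2 footprint libraries, 12 in all. Cells for footprints were also given cycloheximide, which halts ribosomes on mRNA, for 15 min. No label says that the replicates were separate cultures, so the p-values measure the spread between these libraries, which may be technical.

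Glycolysis splits glucose into pyruvate in the cytosol and yields ATP and NADH. Hexokinase and phosphofructokinase are its early control points, the enzymes from aldolase to enolase carry the shared trunk, and lactate dehydrogenase A turns pyruvate into lactate and returns NAD+. Many of these genes are targets of the hypoxia factor HIF-1 and of MYC, and leukemia cells are known for high glycolytic flux.

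Deposited mRNA totals lay between 22685066 and 24854593 normalised reads per library. Footprint totals lay far apart, at 4884067 and 4423843 for shNS but 504631 and 456338 for shBP2-1, with shBP2-2 between them at 1686279 and 2583384. Footprint depth and hairpin therefore cannot be told apart, and values below were rescaled within each assay by the median ratio over genes, so every footprint change is relative to the typical gene. IGF2BP2 mRNA stood at 20.3% of its shNS level with shBP2-1 and 31.2% with shBP2-2 (limma, mean of both hairpins, log2 change -1.99 ± 0.09 SE, adjusted p = 3.45e-08), and its relative footprints at 5.57% and 10.7%. Those footprint levels were low, at a rescaled mean of 10.8 with shBP2-1 and 20.7 with shBP2-2 beside 194 in shNS. Given the low shBP2-1 totals, the 5.57% rests on few reads. All 10 monocytic and myeloid markers were present, with a summed mRNA value of 82968 to 161690. Of the 5 T and NK markers only NKG7 reached a mean of 10, with CD3D, CD3E and GNLY at 0, and the 5 erythroid and megakaryocyte markers summed to 0 to 7.

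The mRNA of most of these enzymes was lower after IGF2BP2 knockdown, while their relative ribosome footprints were level or higher. Averaged over both hairpins, mRNA of 7 of the 10 genes fell and mRNA of 1, LDHA, rose (limma with precision weights, Benjamini-Hochberg adjusted p under 0.05 over 12203 genes). Against this, 30% of all tested genes were called lower and 28.9% higher, so the share that fell is above the background and the share that rose is below it. Footprints of 6 genes rose and the other 4 passed in neither direction, where 4.96% of 9306 tested genes were called higher and 4.28% lower. Translational efficiency, the footprint change minus the mRNA change in 1 model over 12 libraries, rose for 7 genes, where 13.2% of 9216 tested genes were called higher and 15.6% lower. The members' median log2 change was -0.31 for mRNA, 0.23 for footprints and 0.62 for translational efficiency, beside -0.01, -0.01 and -0.04 over all tested genes. All 10 genes passed the minimum mean value of 10 in every comparison. In bulk libraries such as these, a different mix of cells and a different amount of RNA per cell cannot be told apart.

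As a share of each library, the 10 genes together took 0.785% and 0.774% of mRNA in the shNS libraries. They took 0.702% and 0.613% with shBP2-1, and 0.601% and 0.657% with shBP2-2. All 4 knockdown mRNA libraries lay below both controls. Of footprints the genes took 1.43% and 1.44% in shNS, 1.64% and 1.67% with shBP2-1, and 1.71% and 1.68% with shBP2-2. Here all 4 knockdown libraries lay above both controls.

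**Figure D1:**
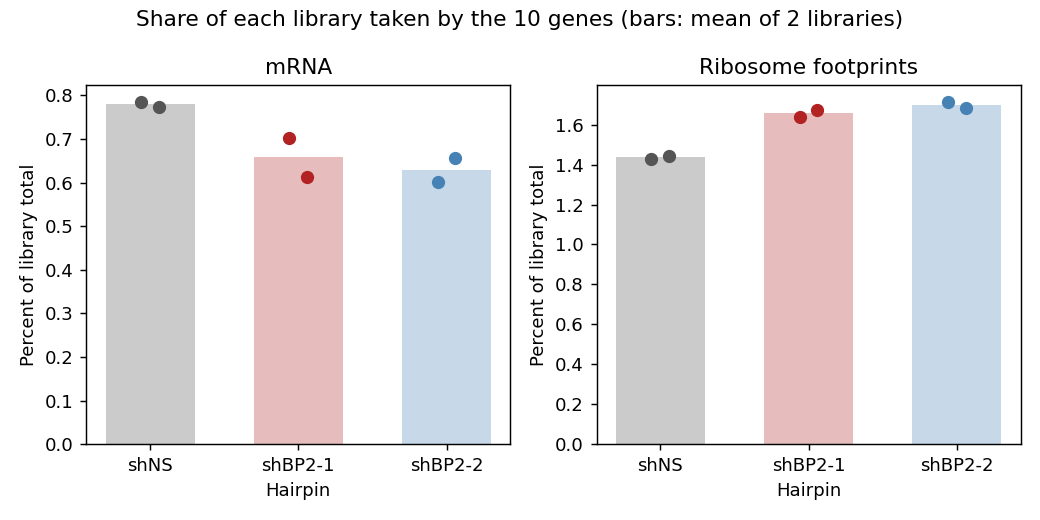
Share of each library's total, in percent, that falls on the 10 genes, by hairpin, for mRNA (left) and ribosome footprints (right). Points are the 2 libraries of each hairpin and bars their mean. The knockdown libraries sit at 0.601% to 0.702% of mRNA, below the controls, and at 1.64% to 1.71% of footprints, above the controls.

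Gene by gene, 8 of the 10 had all 4 knockdown mRNA libraries below both shNS libraries, an order shown by 30.1% of all tested genes, and 1 had all 4 above, as 30.5% of tested genes did. For footprints 7 of 10 had all 4 knockdown libraries above both controls, as 10.7% of tested genes did. HK2 and PFKL lay above the controls with shBP2-1 and below them with shBP2-2, and PFKP overlapped them. Abundant mRNAs as a class moved differently, and 9 of the 10 genes belong to the top 20% by mean mRNA, a class chosen after the values were seen. In that class 27.3% of mRNAs were called lower and 46.8% higher, with a median of 0.18. Footprints in that class were called higher for 11.3% and lower for 10.3%, with a median of -0.02. Translational efficiency in that class was called higher for 18.9% and lower for 33.2%, with a median of -0.23.

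**Figure D2:**
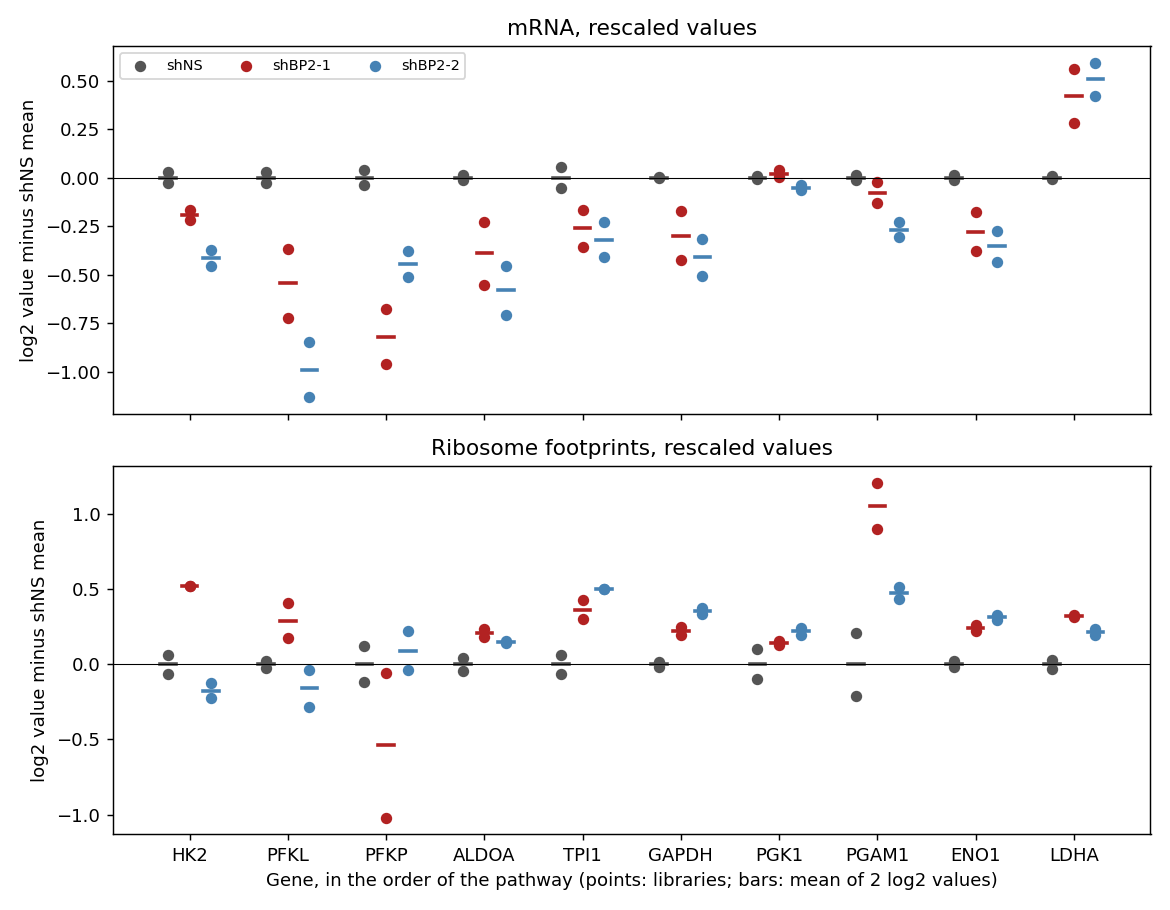
Rescaled mRNA (top) and footprint (bottom) values of each gene as log2 differences from the mean of the 2 shNS libraries, with genes in pathway order. Points are libraries and bars the mean of the 2 log2 values of a hairpin. LDHA is the gene whose mRNA lies above the controls in all 4 knockdown libraries, and footprints of ALDOA, TPI1, GAPDH, PGK1, PGAM1, ENO1 and LDHA lie above them with both hairpins.

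HK2 encodes hexokinase 2, which phosphorylates glucose on entry and can sit on the outer mitochondrial membrane (GRCh38.p14, chr2:74834127-74893359, plus strand). In the order replicate 1 then replicate 2, its rescaled mRNA value was 4010 and 4178 in shNS, 3640 and 3520 with shBP2-1, and 2982 and 3158 with shBP2-2. Both hairpins lay below the control and shBP2-2 lay lowest. HK2 mRNA fell by 0.31 on the log2 scale (SE 0.08, adjusted p = 0.00664, mean of both hairpins). Its rescaled footprints were 428 and 392 in shNS, 589 and 588 with shBP2-1, and 376 and 351 with shBP2-2. The hairpins thus lay on opposite sides of the control. The difference between them, 0.71 ± 0.11 (log2, SE), passed the test (adjusted p = 0.00283), and the mean of both, 0.17 ± 0.07, did not (adjusted p = 0.163). Translational efficiency of HK2 rose by 0.48 ± 0.11 (adjusted p = 0.00634), with 0.72 for shBP2-1 and 0.23 for shBP2-2. The mRNA call was lost without shNS replicate 1 (adjusted p = 0.0708) or 2 (adjusted p = 0.118), the footprint mean passed without shNS replicate 1 (adjusted p = 0.0488), and the hairpin difference was lost without shBP2-1 replicate 1 (adjusted p = 0.0526).

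PFKL and PFKP encode the liver-type and platelet-type subunits of phosphofructokinase 1, which commits fructose 6-phosphate to glycolysis, and their mRNAs had the largest falls among the 10 genes in the mean of both hairpins, though with shBP2-2 alone ALDOA (-0.58) lay below PFKP (-0.45). PFKL (chr21:44300053-44327373, plus strand) had rescaled mRNA values of 6248 and 6009 in shNS, 4755 and 3713 with shBP2-1, and 2795 and 3403 with shBP2-2. PFKP (chr10:3067548-3136805, plus strand) had 1521 and 1441 in shNS, 924 and 761 with shBP2-1, and 1039 and 1138 with shBP2-2. No knockdown library reached a control value for either gene, and the hairpins stood in opposite order: shBP2-2 was lowest for PFKL and shBP2-1 for PFKP. PFKL mRNA fell by 0.77 (log2, SE 0.11, adjusted p = 0.000265) and PFKP mRNA by 0.63 (SE 0.10, adjusted p = 0.000388).

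The difference between hairpins, shBP2-1 minus shBP2-2, was 0.45 ± 0.13 for PFKL mRNA (adjusted p = 0.0232) and -0.37 ± 0.12 for PFKP mRNA (adjusted p = 0.0351). Without shBP2-1 replicate 1 or shBP2-2 replicate 1 the PFKL difference no longer passed (adjusted p = 0.0631 and 0.178). Leaving out shBP2-1 replicate 2, shBP2-2 replicate 2, shNS replicate 1 or shNS replicate 2 ended the PFKP difference (adjusted p = 0.127, 0.173, 0.0663 and 0.065).

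PFKL footprints, rescaled, were 326 and 315 in shNS, 361 and 424 with shBP2-1, and 312 and 263 with shBP2-2. They were above the control with the first hairpin and below it with the second, and the mean change, 0.06 ± 0.09, did not pass (adjusted p = 0.738). PFKP had the lowest deposited footprint values of the 10, at 299 and 317 in shNS, 16 and 28 with shBP2-1, and 127 and 163 with shBP2-2. After rescaling these became 99.9 and 118, 53.5 and 104, and 126 and 106, and the groups overlapped. Its footprint change of -0.23 had a 95% interval from -0.61 to 0.16. Translational efficiency rose for PFKL by 0.82 ± 0.18 (adjusted p = 0.00392). For PFKP the value of 0.41 ± 0.22 did not pass (adjusted p = 0.17), though it was 0.65 without footprint library shBP2-1 replicate 1 and then passed (adjusted p = 0.0479).

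ALDOA encodes aldolase A, which cleaves fructose 1,6-bisphosphate, and TPI1 encodes triosephosphate isomerase, which interconverts the resulting trioses. ALDOA (chr16:30064279-30070420, plus strand) had rescaled mRNA values of 23837 and 23341 in shNS, 20145 and 16088 with shBP2-1, and 14459 and 17215 with shBP2-2. TPI1 (chr12:6867420-6870948, plus strand) had 7066 and 7631, 6541 and 5728, and 5535 and 6255 in the same order. The controls were highest for both genes, and the hairpins overlapped each other. ALDOA mRNA fell by 0.49 (log2, SE 0.11, adjusted p = 0.00204) and TPI1 mRNA by 0.29 (SE 0.09, adjusted p = 0.0156).

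ALDOA footprints, rescaled, were 2497 and 2353 in shNS, 2756 and 2852 with shBP2-1, and 2706 and 2681 with shBP2-2. TPI1 footprints were 719 and 660, 927 and 849, and 975 and 978 in the same order. Every knockdown library lay above both controls for each gene. The ALDOA footprint change of 0.18 ± 0.04 passed (adjusted p = 0.0154), but the call ended on leaving out any 1 of the 4 knockdown footprint libraries (adjusted p = 0.111 and 0.157 for shBP2-1 replicates 1 and 2, 0.0585 and 0.0515 for shBP2-2). It was also lost with quantile scaling, which left 0.09 (adjusted p = 0.258), equal totals (0.14, adjusted p = 0.0548), the trend fit (adjusted p = 0.0543) and a fit over all 12 libraries (adjusted p = 0.345). The TPI1 footprint change of 0.44 ± 0.06 (adjusted p = 0.000917) kept its call under all 12 alternatives. Translational efficiency rose by 0.67 ± 0.12 for ALDOA (adjusted p = 0.00175) and by 0.73 ± 0.12 for TPI1 (adjusted p = 0.000915). The TPI1 mRNA call was lost without shBP2-2 replicate 1, shNS replicate 1 or shNS replicate 2 (adjusted p = 0.0687, 0.0722 and 0.196).

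GAPDH encodes the dehydrogenase that makes 1,3-bisphosphoglycerate and NADH, and is often used as a reference gene (chr12:6534517-6538371, plus strand). Its rescaled mRNA was 45478 and 45335 in shNS, 40342 and 33772 with shBP2-1, and 31931 and 36517 with shBP2-2. Its rescaled footprints were 5356 and 5216, 6068 and 6288, and 6855 and 6680 in the same order. Knockdown libraries were all lower in mRNA and all higher in footprints, at 81.6% and 75.4% of the shNS mRNA mean and 116.9% and 128.0% of the shNS footprint mean with shBP2-1 and shBP2-2. GAPDH mRNA fell by 0.36 (log2, SE 0.10, adjusted p = 0.00703), footprints rose by 0.29 ± 0.03 (adjusted p = 6.1e-05) and translational efficiency rose by 0.64 ± 0.10 (adjusted p = 0.000759). The mRNA call was lost without shNS replicate 1 or 2 (adjusted p = 0.0827 and 0.0682), and quantile scaling left a footprint change of 0.10 (adjusted p = 0.0543).

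PGK1 encodes phosphoglycerate kinase 1, which makes the first ATP of the pathway (chrX:78104248-78129295, plus strand). Its rescaled mRNA was 13270 and 13424 in shNS, 13367 and 13704 with shBP2-1, and 12750 and 13008 with shBP2-2. The controls overlapped shBP2-1 and stood just above shBP2-2, and the mean change of -0.02 had a 95% interval from -0.19 to 0.16 (adjusted p = 0.874). Its rescaled footprints were 2473 and 2840, 2893 and 2948, and 3137 and 3041. Both controls lay below every knockdown library, although shNS replicate 2 was close to them. The footprint change of 0.18 ± 0.06 missed the threshold (adjusted p = 0.065) and was 0.28 and called without shNS replicate 2 (adjusted p = 8.81e-05). Translational efficiency, at 0.20 ± 0.09, did not pass (adjusted p = 0.0895), but did without footprint library shNS replicate 2 (0.29, adjusted p = 0.0407), mRNA library shBP2-1 replicate 1 (0.19, adjusted p = 0.0368) or mRNA library shBP2-1 replicate 2 (0.21, adjusted p = 0.0341).

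PGAM1 encodes phosphoglycerate mutase 1, which moves the phosphate ahead of the enolase step, and had the largest footprint change of the 10 genes in the mean of both hairpins, though with shBP2-2 alone TPI1 stood at 0.50 and PGAM1 at 0.49 (chr10:97426191-97433444, plus strand). Its rescaled footprints were 206 and 276 in shNS, 445 and 551 with shBP2-1, and 322 and 340 with shBP2-2. The 3 groups did not overlap, with shBP2-1 highest, and the mean change was 0.77 ± 0.12 (log2, SE, adjusted p = 0.00174). The difference between hairpins, 0.57 ± 0.17, did not pass (adjusted p = 0.0714). Its rescaled mRNA was 9439 and 9588, 9351 and 8688, and 7683 and 8111, with shBP2-1 just under the control and shBP2-2 lower. The mRNA change of -0.17 ± 0.08 missed the threshold (adjusted p = 0.0821), but was called lower with scaling to equal totals (adjusted p = 0.0182) and without shBP2-1 replicate 1 (adjusted p = 0.0115). Translational efficiency rose by 0.95 ± 0.14 (adjusted p = 0.000759).

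ENO1 encodes enolase 1, which forms phosphoenolpyruvate (chr1:8861000-8878686, minus strand). Its rescaled mRNA was 44131 and 43225 in shNS, 38560 and 33558 with shBP2-1, and 32290 and 36116 with shBP2-2. Its rescaled footprints were 7720 and 7940, 9122 and 9389, and 9854 and 9608 in the same order. As for GAPDH, all knockdown libraries were below the controls in mRNA and above them in footprints. ENO1 mRNA fell by 0.32 (log2, SE 0.09, adjusted p = 0.00937), footprints rose by 0.28 ± 0.03 (adjusted p = 3.71e-05) and translational efficiency rose by 0.60 ± 0.09 (adjusted p = 0.000541). The mRNA call was lost without shNS replicate 1 or 2 (adjusted p = 0.123 and 0.0812), and quantile scaling left a footprint change of 0.04 (adjusted p = 0.32).

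LDHA was the exception at the mRNA level (chr11:18394563-18408425, plus strand). Its rescaled mRNA was 21684 and 21872 in shNS, 26484 and 32142 with shBP2-1, and 32826 and 29133 with shBP2-2. All 4 knockdown libraries lay above both controls, at 134.6% and 142.3% of the shNS mean for shBP2-1 and shBP2-2. LDHA mRNA rose by 0.46 ± 0.10 (log2, SE, adjusted p = 0.00164), a call kept under all 13 alternatives. Its rescaled footprints were 3485 and 3638, 4472 and 4430, and 4075 and 4197, again above both controls in every knockdown library, and rose by 0.27 ± 0.03 (adjusted p = 0.000356), a call lost when all 12 libraries shared 1 spread (adjusted p = 0.0868). With mRNA and footprints both higher, its translational efficiency change was -0.19 ± 0.11 and did not pass (adjusted p = 0.165), with a 95% interval from -0.41 to 0.03. It was -0.26 and called lower without mRNA library shBP2-1 replicate 1 (adjusted p = 0.00727).

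**Figure D3:**
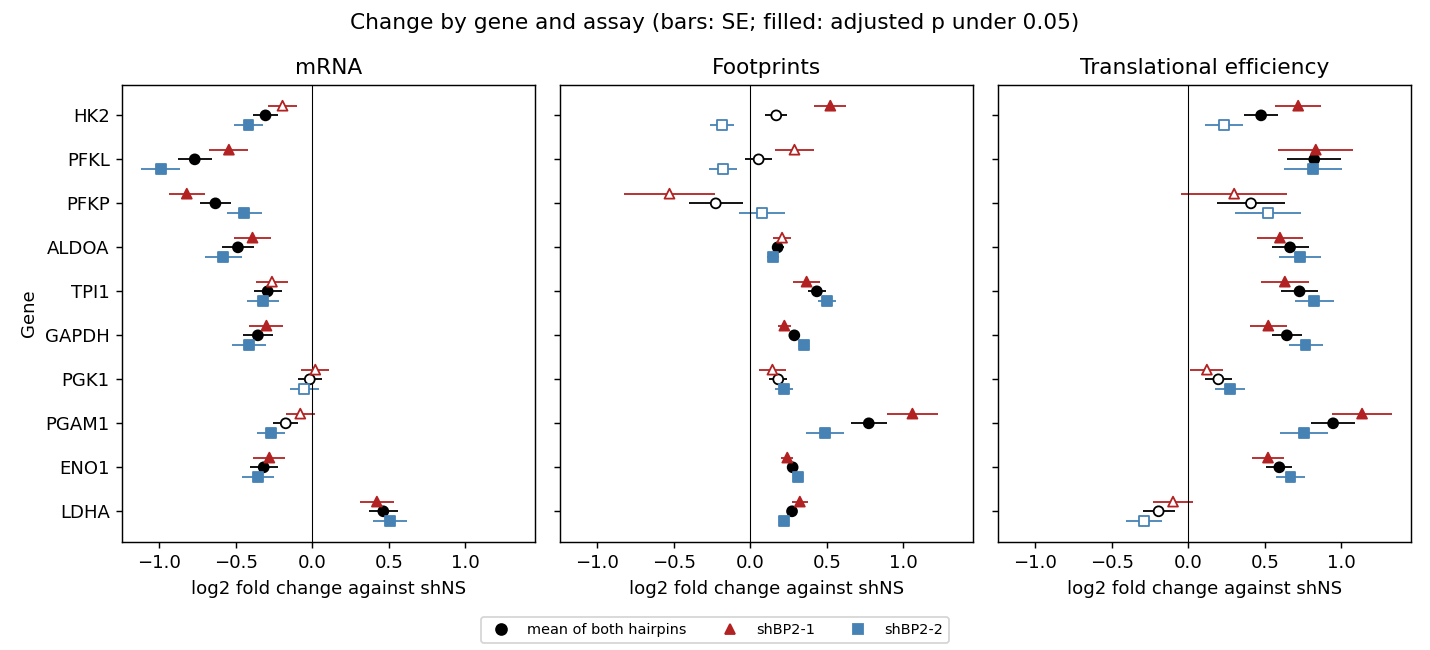
Log2 change against shNS for each gene in mRNA, footprints and translational efficiency, with black circles for the mean of both hairpins and red triangles and blue squares for shBP2-1 and shBP2-2. Bars are standard errors and filled symbols have an adjusted p under 0.05. Translational efficiency is above 0 for 9 of the 10 genes with both hairpins, from 0.20 for PGK1 to 0.95 for PGAM1 in the mean, and below 0 for LDHA.

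Several limits touch these results together. With shNS replicate 1 or 2 left out, 4 of the 8 mRNA calls remained (PFKL, PFKP, ALDOA and LDHA). All 7 translational efficiency calls were kept under each of the 17 alternatives. Within the knockdown groups, 8 of the 10 genes had higher mRNA in shBP2-1 replicate 1 and shBP2-2 replicate 2 than in the other library of the same hairpin, 1 gene (LDHA) had the reverse, and 1 (PGK1) had neither. Over all tested genes the deviations of those libraries were correlated at -0.664 between the hairpins, so the size of the mRNA change moves with library as well as hairpin, and what sets that spread was not tested. Without rescaling, deposited footprint values of the 10 genes were lower in the knockdown, by a mean log2 change of -1.49 for PGAM1 to -2.45 for PFKP, beside -2.23 for the median gene. A relative rise therefore says nothing about the absolute amount of ribosomes on these mRNAs. RefSeq names 65 pseudogenes for GAPDH, 13 for PGAM1, 6 for LDHA, 4 each for TPI1 and ENO1, 2 each for PGK1 and ALDOA, and 1 for HK2, so the assignment of reads to these genes is uncertain and its part in the changes was not tested.

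Compared hairpin by hairpin, mRNA of 5 genes fell and of 1 rose with shBP2-1 (background 21% lower and 23.5% higher). With shBP2-2 mRNA of 8 fell and of 1 rose (28.8% and 28.2%). Footprints rose for 6 genes with shBP2-1 (3.86% higher and 2.88% lower over all tested genes) and for 7 with shBP2-2 (7.02% and 5.32%). Translational efficiency rose for 7 genes with each hairpin (4.84% higher and 5.91% lower for shBP2-1, 12% and 11.9% for shBP2-2). Both hairpins were set against the same shNS libraries, so their counts are not independent. Tested directly against each other, the hairpins differed in mRNA for PFKL and PFKP alone (11.5% of tested genes higher and 11.8% lower) and in footprints for HK2 alone (3.27% and 3%). For translational efficiency none of the 10 differed by limma at the adjusted threshold (0.271% and 0.597%), where 974 of all tested genes had an unadjusted p under 0.05, among them HK2 (0.48 ± 0.16, unadjusted p = 0.00635). A limma fit with a mean-variance trend called 1 of the 10 in that comparison. Leaving out 1 library moved these counts widely for footprints of shBP2-1, from 0 to 8 genes, and less for translational efficiency, from 4 to 7 genes with shBP2-1 and from 5 to 9 with shBP2-2.

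In control cells the genes differed in how many footprints they had per mRNA. As a log2 ratio relative to the median gene, shNS replicates 1 and 2 gave 1.70 and 1.91 for PGK1, 1.61 and 1.71 for ENO1, and 1.49 and 1.56 for LDHA. These are the genes at or above the 93rd percentile of tested genes, and the replicate values of PGK1 and ENO1 overlap. GAPDH followed with 1.04 and 1.03, then HK2 with 0.90 and 0.74, ALDOA with 0.87 and 0.84, and TPI1 with 0.83 and 0.62. The HK2 replicates overlapped those of ALDOA and TPI1, and both ALDOA values lay just above both TPI1 values. PFKP stood at 0.21 and 0.55 and PFKL at -0.13 and -0.10. PGAM1 was lowest, at -1.39 and -0.97, and was also the gene whose footprints rose most in the mean of both hairpins. Both results use the same 2 shNS footprint libraries, where a low value lowers the ratio and raises the change, so they are not independent. Gene length cancels in this ratio except for untranslated regions, which were not accounted for.

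Promoter sequence was looked at because 7 of the genes fell together in mRNA while LDHA rose. In RefSeq's GRCh38.p14 table the 10 genes had 18 windows of 300 bases, each from 250 bases before to 50 after a transcription start. Windows were searched on both strands for ACGTG or GCGTG, the core letters of HIF-1 sites, and for CACGTG, the E-box of MYC and related factors, which itself holds ACGTG. At least 1 core was present in 14 of 18 windows (77.8%), beside 48.4% of 35116 windows over all genes, and CACGTG in 4 (22.2%), beside 7.26%. Base composition was not matched, and a match describes letters only. The 4 windows below are shown for LDHA, whose mRNA rose and which has 6 cores, PFKL, whose mRNA fell most in the mean and which has 1, PGK1, with mRNA near the control and 4 cores, and GAPDH, with 2. Each CACGTG reads as ACGTG on both strands and so counts as 2 cores. The 6 cores of LDHA include 2 CACGTG sites counted in this way, and the 2 cores of GAPDH are 1 such site. HK2, whose mRNA fell, also had a window with 6 cores, 2 CACGTG sites among them, and another window with 3 cores. The LDHA window that is not shown had 1 core. Letters run 5′ to 3′ on the strand of the gene, and capitals mark the matches (CACGT and CACGC are matches on the other strand).
LDHA (chr11:18394313-18394612, plus strand): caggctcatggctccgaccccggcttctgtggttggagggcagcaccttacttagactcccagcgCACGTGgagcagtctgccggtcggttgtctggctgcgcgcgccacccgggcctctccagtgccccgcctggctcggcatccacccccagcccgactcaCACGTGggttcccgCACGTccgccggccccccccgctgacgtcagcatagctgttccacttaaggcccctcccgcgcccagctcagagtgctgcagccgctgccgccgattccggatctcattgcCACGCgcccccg
PFKL (chr21:44299803-44300102, plus strand): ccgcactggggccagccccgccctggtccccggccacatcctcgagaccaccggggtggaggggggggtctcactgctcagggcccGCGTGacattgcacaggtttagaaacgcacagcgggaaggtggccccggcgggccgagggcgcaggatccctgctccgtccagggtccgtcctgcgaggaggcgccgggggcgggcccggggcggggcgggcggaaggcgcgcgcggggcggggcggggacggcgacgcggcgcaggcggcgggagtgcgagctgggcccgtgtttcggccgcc
PGK1 (chrX:78103998-78104297, plus strand): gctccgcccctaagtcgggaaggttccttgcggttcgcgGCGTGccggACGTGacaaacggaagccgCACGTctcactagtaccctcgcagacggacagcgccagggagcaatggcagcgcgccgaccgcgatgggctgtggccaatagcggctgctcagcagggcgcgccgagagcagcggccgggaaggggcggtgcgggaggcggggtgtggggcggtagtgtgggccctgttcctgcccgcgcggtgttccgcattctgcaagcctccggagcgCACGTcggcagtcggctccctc
GAPDH (chr12:6535014-6535313, plus strand): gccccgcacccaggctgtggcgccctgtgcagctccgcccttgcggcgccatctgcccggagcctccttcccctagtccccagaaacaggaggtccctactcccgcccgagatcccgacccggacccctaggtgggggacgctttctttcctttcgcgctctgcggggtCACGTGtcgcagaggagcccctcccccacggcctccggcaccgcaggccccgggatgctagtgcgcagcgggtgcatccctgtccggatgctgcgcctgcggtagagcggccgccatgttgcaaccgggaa
The number of cores differed between genes that moved the same way, and the window of PGAM1 held none. For PFKP, TPI1, GAPDH and PGAM1 no window is set on the start of the gene in the RefSeq gene table, since the windows follow other transcript starts inside the gene. Sequence at the gene start was not searched for PFKP, GAPDH and PGAM1. The first TPI1 window takes in the start of that gene, though not all of the 250 bases before it, and held no core.

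The remaining enzymes of the pathway, from lists chosen for their place in it, showed a mixed picture. Of 11 other glycolysis enzymes tested, mRNA of 5 fell and of 1 rose, with a median change of 0.04, where 30% of all tested genes fell and 28.9% rose. HK1, the housekeeping hexokinase, fell by 0.34 (log2, adjusted p = 0.00456), GPI, glucose-6-phosphate isomerase, by 0.32 (adjusted p = 0.0156), and PKM, pyruvate kinase, by 0.30 (adjusted p = 0.0131). PFKM, the muscle-type phosphofructokinase, fell by 0.26 (adjusted p = 0.0277) and ENO2, the neuronal enolase, by 0.34 (adjusted p = 0.0399). LDHB, the other main lactate dehydrogenase subunit, rose by 0.45 (adjusted p = 0.00428), close to the 0.46 of LDHA. Each of these falls lost its call without shNS replicate 1 or without shNS replicate 2 (adjusted p = 0.07 and 0.0661 for HK1, 0.106 and 0.0971 for GPI, 0.138 and 0.106 for PKM, 0.255 and 0.122 for PFKM, 0.285 and 0.102 for ENO2), while LDHB kept its call with each mRNA library left out. GPI, PKM, PFKM and ENO2 also lost it without shBP2-2 replicate 1 (adjusted p = 0.054, 0.0594, 0.108 and 0.12), and ENO2 without shBP2-1 replicate 1, shBP2-1 replicate 2 or shBP2-2 replicate 2 (adjusted p = 0.0504, 0.0568 and 0.0725). HK1 mRNA passed with each hairpin (-0.29 with shBP2-1 and -0.39 with shBP2-2). GPI mRNA stood at -0.09 with shBP2-1 and -0.56 with shBP2-2, and PKM at -0.18 and -0.42, each passing with shBP2-2 only. PFKM stood at -0.41 and -0.11 and ENO2 at -0.53 and -0.15, each passing with shBP2-1 only. The GPI hairpins differed by 0.47 (limma, adjusted p = 0.0116), or by 0.35 without shBP2-2 replicate 1. In the mean of both hairpins ALDOC at 0.14 and HK3 at 0.16 did not pass, but their hairpins lay on opposite sides of the control. The shBP2-1 hairpin had ALDOC mRNA at -0.53 and shBP2-2 had it at 0.81, and these differed by -1.33 ± 0.14 (adjusted p = 2.18e-05). HK3 mRNA was at 0.65 and -0.33 (difference 0.98 ± 0.24, adjusted p = 0.0113), which no longer passed after leaving out either shBP2-2 library (adjusted p = 0.0684 and 0.0597).

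Footprints of PKM rose by 0.20 (adjusted p = 0.000609) and of ALDOC, aldolase C, by 1.46 (adjusted p = 0.000897), and the other 6 of 8 tested did not pass, among them LDHB at -0.02 and PFKM at -0.43. Over all tested genes 4.96% of footprints were called higher and 4.28% lower. Translational efficiency of this list rose for 4 of 8 genes and fell for 1, where 13.2% of all tested genes rose and 15.6% fell. It rose for HK1 (0.52, adjusted p = 0.00753), GPI (0.49, adjusted p = 0.0116), PKM (0.50, adjusted p = 0.00143) and ALDOC (1.32, adjusted p = 0.00361). For LDHB it fell by 0.47 (adjusted p = 0.0131), lost without footprint library shNS replicate 2 (adjusted p = 0.0516). PKM footprints dropped to 0.05 with quantile scaling (adjusted p = 0.388).

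Transport of glucose and lactate shared the opposite moves of mRNA and footprints in part. Of 9 tested genes mRNA of 4 fell (median -0.36), where 30% of all tested genes fell. The shares over all tested genes were 4.96% higher and 4.28% lower for footprints, and 13.2% higher and 15.6% lower for translational efficiency. SLC2A1, the glucose transporter GLUT1, fell by 0.39 (adjusted p = 0.00607), SLC16A3, the lactate exporter MCT4, by 0.47 (adjusted p = 0.0022), SLC2A5, a fructose transporter, by 0.73 (adjusted p = 0.000848), and BSG, the partner protein of MCT1 and MCT4, by 0.36 (adjusted p = 0.0109). SLC2A5 stood at -0.22 with shBP2-1, which did not pass (limma, adjusted p = 0.241), and at -1.25 with shBP2-2 (adjusted p = 0.000164). SLC16A3 likewise passed with shBP2-2 only (-0.31 with shBP2-1 and -0.64 with shBP2-2). SLC2A1 passed with shBP2-1 only (-0.54 and -0.24 in the same order), and BSG passed with each. SLC16A1 at 0.20 did not pass in the mean of both hairpins. SLC2A3, the glucose transporter GLUT3, did not pass in the mean, at -0.09, but shBP2-1 had it at -0.50 and shBP2-2 at 0.32, which differed by -0.82 ± 0.11 (adjusted p = 0.000117). Footprints rose for 2 of 7, SLC2A1 at 0.55 (adjusted p = 0.0252) and BSG at 0.31 (adjusted p = 0.0288). The list median for footprints was -0.115, beside -0.009 over all tested genes, so the list as a whole did not share the footprint rise. Footprint changes of SLC2A3, SLC2A5, SLC16A1 and SLC16A7 were negative and did not pass. Translational efficiency rose for SLC2A1 (0.94, adjusted p = 0.00366), SLC16A3 (0.71, adjusted p = 0.00522) and BSG (0.68, adjusted p = 0.00391), and fell for 2 of the 7, SLC16A7 at -0.92 (adjusted p = 0.03) and SLC16A1 at -0.31 (adjusted p = 0.044). Those last calls were weak: SLC16A1 kept its call only without mRNA library shBP2-1 replicate 1, shBP2-1 replicate 2 or shBP2-2 replicate 2 (adjusted p = 0.0536 to 0.114 without any other library), and SLC16A7 lost it without footprint libraries shBP2-1 replicate 2 or shNS replicate 2 or mRNA libraries shNS replicate 1 or 2 (adjusted p = 0.0511 to 0.133). The SLC2A1 mRNA call was lost without shNS replicate 1 (adjusted p = 0.101) and that of BSG without shNS replicate 1 or 2 (adjusted p = 0.0813 and 0.0678). The SLC2A1 footprint call was lost without shBP2-1 replicate 1 or 2, shBP2-2 replicate 1 or shNS replicate 2 (adjusted p = 0.135, 0.0997, 0.0646 and 0.0543), and that of BSG without any 1 knockdown library (adjusted p = 0.0587 to 0.102).

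Branches that leave glycolysis were read against the same background, 28.9% of tested mRNAs higher and 30% lower. Of 7 pentose phosphate enzymes mRNA of 4 fell and of 1 rose, with PGLS, 6-phosphogluconolactonase, falling by 0.79 (adjusted p = 0.000328), TKT, transketolase, by 0.52 (adjusted p = 0.00129) and PGD by 0.37 (adjusted p = 0.00505). Their translational efficiency rose for 4 of 7 (median 0.57), where 13.2% of tested genes rose. For pyruvate entry into mitochondria mRNA of 2 of 7 rose, a share near the background, DLD by 0.46 (adjusted p = 0.00157) and MPC2 by 0.37 (adjusted p = 0.0029), and translational efficiency of 4 of 7 fell (median -0.39), where 15.6% of tested genes fell. Of those 4 falls in translational efficiency, the calls of PDHB, MPC2 and DLD were each lost on leaving out 1 of several single libraries. Their changes in the fits that lost the call were -0.36 to -0.42 for PDHB, -0.57 to -0.73 for MPC2, and -0.41 and -0.43 for DLD. Footprints of MPC1, a subunit of the mitochondrial pyruvate carrier, fell by 0.77 (adjusted p = 0.0463). Of these calls, PGD mRNA and MPC2 mRNA were lost without shNS replicate 1 (adjusted p = 0.0752 and 0.0905). MPC1 footprints lost theirs without any 1 footprint library other than shNS replicate 1 (adjusted p = 0.0555 to 0.248).

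**Figure D4:**
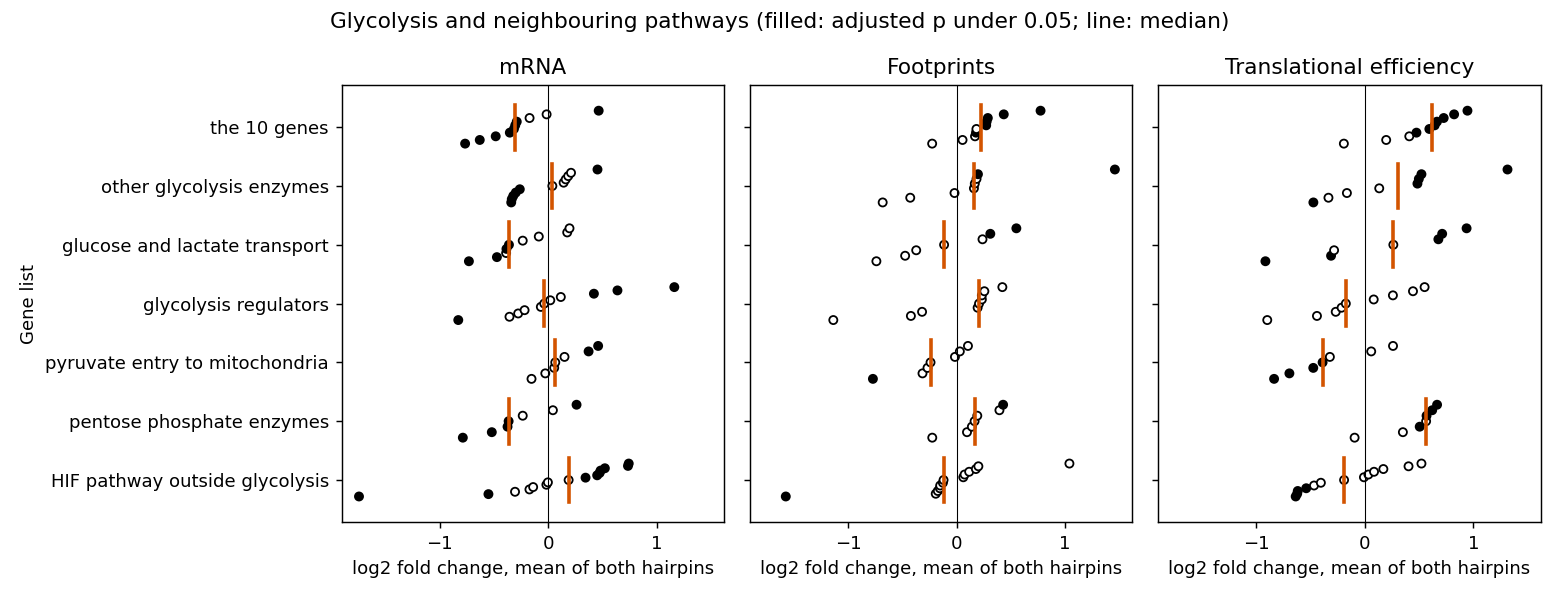
Log2 change, mean of both hairpins, of the 10 genes and of 6 related gene lists in mRNA, footprints and translational efficiency, with 1 point per tested gene. Filled points have an adjusted p under 0.05 and vertical bars are list medians. The 10 genes have medians of -0.31, 0.23 and 0.62, and the pentose phosphate enzymes -0.37, 0.17 and 0.57.

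Of 11 tested regulators of glycolysis and pyruvate dehydrogenase, mRNA of 3 rose and of 1 fell, where 28.9% and 30% of all tested genes did. In the mean of both hairpins, no footprint or translational efficiency change passed by limma among the 9 tested (FBP1 footprints had an unadjusted p of 0.0484). By hairpin, PFKFB2 footprints passed with shBP2-2 (1.06, adjusted p = 0.0489, limma). With shBP2-1 they stood at -0.55 ± 0.67 and did not pass (adjusted p = 0.669, limma). The pyruvate dehydrogenase kinases split, with PDK4 mRNA up by 1.16 (adjusted p = 0.00573), PDK3 up by 0.64 (adjusted p = 0.00112) and PDK2 down, at -0.83 (adjusted p = 0.000782). Leaving out shNS replicate 2 ended the PDK4 call (adjusted p = 0.0683). Among 15 HIF pathway genes outside glycolysis, mRNA of 7 rose and of 2 fell. HIF1A, the oxygen-regulated subunit of HIF-1, rose by 0.73 (adjusted p = 0.000165) and P4HA1, a collagen prolyl hydroxylase, by 0.74 (adjusted p = 0.000184), while VEGFA, an angiogenic growth factor, fell by 1.75 (adjusted p = 9.45e-08). VEGFA was also the 1 gene of 13 whose footprints fell (-1.57, adjusted p = 0.00317), where 4.28% of all tested genes fell. Translational efficiency fell for 4 of these 13 (median -0.19), where 15.6% of all tested genes fell. Each of the 4 calls was lost on leaving out at least 1 library: HIF1A without footprint libraries shBP2-1 replicate 2 or shNS replicate 2 or mRNA library shNS replicate 1 (adjusted p = 0.0559 to 0.0763), ERO1A without footprint library shNS replicate 2 (adjusted p = 0.0513), P4HA1 without 1 of 5 libraries (adjusted p = 0.0523 to 0.104) and KDM3A without 1 of 7 (adjusted p = 0.0507 to 0.118).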

How the data were processed

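Poly(A) mRNA and ribosome footprints of MM6 cells were sequenced, and the deposited table holds a normalised read count per gene that the authors rounded to whole numbers. These values deposited by the authors were handled as a score and not as raw counts, since no header or label states the normalisation method. Per the submitters' processing notes, FastQC, cutadapt, Bowtie, STAR and RSEM were used with hg38.

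Values were divided by median-ratio factors within each assay. Genes with a mean deposited value of at least 10 were tested with limma 3.58.1 in R 4.3.3, on log2 values with voom's offset of 0.5 and precision weights, with 3 residual degrees of freedom per assay and 6 for translational efficiency. P-values were adjusted by Benjamini-Hochberg over all tested genes, at a threshold of 0.05. The fits were also run on simulated counts with known changes. Those counts were drawn independently for each library, without the correlated library deviations described above. That run therefore cannot speak to calls that move with single libraries. 26 symbols stand on 2 entries, none of them among the 10 genes.

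The rule for the members is a list of symbols with no measured value in it, but members and lists were proposed with earlier results of these data known. Text names all 10 genes, IGF2BP2, isozymes and transporters fixed by symbol, and up to 3 called genes per list with the smallest p for mRNA and for footprints. BSG mRNA, SLC16A7, FBP1, PFKFB2, PDHB, KDM3A and ERO1A were added after their values were seen. The result of 1 gene that this rule names is not reported here. Alternatives were a trend fit with a pseudocount of 1, quantile scaling, equal totals, no rescaling (mRNA), no minimum, 1 fit over 12 libraries, a replicate block and leaving out each library.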

Additional observations from a re-analysis of the deposited data

Results flagged for a closer look

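The hairpins against IGF2BP2 differed in 3 member values by a test of the difference itself. PFKL mRNA was higher with shBP2-1 than with shBP2-2 by 0.45 (log2), HK2 footprints were higher by 0.71, and for PFKP mRNA shBP2-1 minus shBP2-2 was -0.37, so shBP2-1 was lower. Each difference lost its call when at least 1 single library was left out, as given with the genes above. IGF2BP2 mRNA itself was lower with shBP2-1 than with shBP2-2 (difference -0.62, adjusted p = 0.00172, limma), and the part of that gap in the 3 differences was not tested. Among related isozymes and transporters, with hairpins on opposite sides of the control, shBP2-1 minus shBP2-2 was 0.98 for HK3 mRNA, -1.33 for ALDOC mRNA, -0.82 for SLC2A3 mRNA and 0.50 for SLC16A3 footprints. The last had 0.49 with shBP2-1 and -0.01 with shBP2-2, and its difference (adjusted p = 0.0436) was lost without any 1 knockdown footprint library (adjusted p = 0.0538 to 0.296). Groups of 2 libraries were too small for a check of single outlying libraries.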

How the results depend on the processing

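All 7 translational efficiency calls over both hairpins were kept under each alternative. For single genes, a sign change between values called in neither fit is not counted as a reversal. Quantile scaling reversed the shBP2-1 footprint change of GAPDH (-0.043, adjusted p = 0.604) and of ENO1 (-0.017, adjusted p = 0.804), and left 3 genes called in the footprint mean, 2 with shBP2-1, 2 in the footprint difference between hairpins and 1 in the mRNA difference. Equal totals left 0 genes in the mRNA difference, where the unrescaled values left 1. With no minimum, 3 genes were called in mRNA of shBP2-1 and 0 in the mRNA difference. The trend fit called 4 genes in footprints of shBP2-2, 3 in the footprint difference and 1 in the translational efficiency difference. The fit over 12 libraries called 2 and 4 genes in footprints of shBP2-1 and shBP2-2. The cause of these shifts was not tested.

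With 1 library left out, mRNA calls ranged over 4 to 9 genes for the mean, 2 to 8 for shBP2-1, 4 to 9 for shBP2-2 and 1 to 5 for the difference. Footprint calls ranged over 5 to 7, 0 to 8, 3 to 8 and 0 to 4, and translational efficiency calls over 7 to 9, 4 to 7, 5 to 9 and 0 to 0.

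Replicate numbers did not pair the samples: deviations of same-numbered libraries correlated at -0.664 between the knockdown mRNA groups and at 0.008 to 0.063 among footprint groups. With a replicate block 1 gene was called in the mRNA difference and 3 in the footprint difference, and PGK1 footprints passed (0.18, adjusted p = 0.0316).

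Over all genes, footprint calls in the mean numbered 860, against 440 with the trend fit and 272 with 12 libraries together. For shBP2-1 they numbered 627, against 1485, 377 (quantile), 1105 (no minimum), 188 (12 libraries) and 1067 (block), and for shBP2-2 1148, against 295 and 414. The footprint difference gave 583, against 1849, 388, 261 and 1086. Translational efficiency of shBP2-1 gave 991, against 2751 and 1904, and its difference 80, against 469 (trend), 28 (quantile), 53 (equal totals) and 131 (block). With 1 library left out, the all-gene calls ranged from 3657 to 8236 for mRNA, 294 to 1111 for footprints and 1432 to 3785 for translational efficiency (both hairpins averaged). Footprint depth in shBP2-1, at 504631 and 456338 reads, limits low genes such as PFKP most.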
